A study of Mus musculus with 6 samples.

Results

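Genes used to mark dendritic cells, 10 in all, were followed in RNA from innate lymphoid cells of the liver. They were picked by symbol, with earlier results of the same AML and healthy libraries already known, and all 10 were found among the 24091 genes of the count table. Siglech, Ccr9, Tcf4 and Bst2 mark plasmacytoid dendritic cells, and Flt3, Batf3, Xcr1, Zbtb46, Clec9a and Itgax mark conventional dendritic cells. Because the AML and healthy values chose the members, their differences between the groups are given as a description and are not evidence of a difference.

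The libraries were made from type 1 innate lymphoid cells (ILC1), liver-resident lymphocytes that produce interferon gamma. The AML group (3 libraries, AML 1 to 3) came from livers of C57BL/6 mice injected intravenously with C1498 cells, while the mice of the healthy group (3 libraries, healthy 1 to 3), also C57BL/6, received none. Both groups are labelled day 14 after tumour, so the label of the healthy mice gives the same day as that of the AML mice. C1498 is a transplantable leukaemia line of the C57BL/6 strain. The labels used here do not give the sort gates, the sex of the mice, their age in weeks, or whether a library came from 1 mouse or from a pool.

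Dendritic cells take up, process and present antigen. Plasmacytoid dendritic cells depend on the E protein Tcf4 and are known for making type I interferon after sensing viral nucleic acid, while conventional type 1 dendritic cells depend on Batf3 and Irf8 and cross-present antigen to CD8 T cells. Flt3, the receptor of the growth factor Flt3 ligand, acts in the development of both. Several of these genes are not exclusive to dendritic cells: Itgax, which encodes CD11c, is also expressed by natural killer (NK) cells and ILC1, Bst2 is induced by interferon in many cell types, and Tcf4 is expressed in other lineages.

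The upstream 250 bases of 3 genes are shown because they hold letters known to be bound by regulators of these cells, E proteins such as Tcf4 and interferon-activated factors. The sequences are RefSeq's for GRCm38.p6, written 5′ to 3′ on the strand of the gene and ending at the base before the annotated start. Of the 10 members, 9 had an entry and were searched on both strands. Capitals in Siglech (chr7:55767934-55768183, plus strand) and Ccr9 (chr9:123766961-123767210, plus strand) mark the E box CACCTG or its complement CAGGTG, and capitals in Bst2 (chr8:71537473-71537722, minus strand) mark overlapping matches to 2 copies of GAAA that lie 2 bases apart, the core of the interferon-stimulated response element.
Siglech: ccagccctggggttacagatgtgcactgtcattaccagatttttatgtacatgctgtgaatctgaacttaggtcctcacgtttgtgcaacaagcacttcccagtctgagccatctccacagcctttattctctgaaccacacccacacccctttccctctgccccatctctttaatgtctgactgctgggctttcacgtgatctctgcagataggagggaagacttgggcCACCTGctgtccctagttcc
Ccr9: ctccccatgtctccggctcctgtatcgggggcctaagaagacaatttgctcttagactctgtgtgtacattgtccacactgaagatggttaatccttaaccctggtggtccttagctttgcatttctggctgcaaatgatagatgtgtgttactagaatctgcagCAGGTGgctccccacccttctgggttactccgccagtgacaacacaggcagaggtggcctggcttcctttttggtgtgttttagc
Bst2: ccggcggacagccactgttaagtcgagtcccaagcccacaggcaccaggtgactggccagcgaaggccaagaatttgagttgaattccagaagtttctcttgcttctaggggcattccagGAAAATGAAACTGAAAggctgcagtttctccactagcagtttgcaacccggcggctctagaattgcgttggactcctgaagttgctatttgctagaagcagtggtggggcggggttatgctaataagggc

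Bst2 held 2 overlapping matches to the paired GAAA motif, starting 130 and 124 bases before the start, and was the only one of the 9 searched members with a match. The motif occurred in 2.98% of 32851 upstream windows of the same length. The E box CACCTG occurred in 4 of the 9 members, in Siglech, Ccr9, Bst2 and Zbtb46, and in 17.2% of all windows. The looser E box CANNTG, of which CACCTG is one form, occurred in 8 of the 9, and in 66.2% of all windows. These matches are a description of the letters in the windows. The Ccr9 window belongs to a RefSeq start that lies inside the longer Ccr9 span of the count table.

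The libraries held 45135093 to 51284691 counted reads. The genes listed for ILC1 that were checked were abundant apart from Il7r, though Ncr1 and Tbx21 are also expressed by NK cells. Ncr1, the receptor NKp46, averaged 1713 ± 136 CPM in AML and 1494 ± 50.7 CPM in healthy libraries, and Tbx21, the transcription factor T-bet, averaged 779 ± 39.6 CPM in AML and 696 ± 61.3 CPM in healthy libraries (SD, n = 3 each; CPM stands for counts scaled to a common library size with TMM factors). Itga1, also listed for ILC1, averaged 417 ± 41.3 CPM in AML and 378 ± 20.3 CPM in healthy libraries. Klrb1c, on the same list, averaged 1450 ± 172 CPM in AML and 1626 ± 119 CPM in healthy libraries. Il7r, the last of those checked, averaged 64.0 ± 17.0 CPM in AML and 60.9 ± 10.4 CPM in healthy libraries. Itga2, listed for conventional NK cells, averaged 10.4 ± 0.828 CPM in AML and 10.1 ± 1.29 CPM in healthy libraries. Eomes, which marks conventional NK cells, averaged 11.1 ± 5.62 CPM in AML and 7.62 ± 2.61 CPM in healthy libraries. The T cell gene Cd3e averaged 21.9 ± 16.8 CPM in AML and 16.8 ± 5.83 CPM in healthy libraries. The summed level of 9 T cell genes, Cd3e among them, went the other way. It ran from 1099 to 1384 CPM in AML and from 1440 to 1745 CPM in healthy libraries. Healthy 1 stood apart from the other healthy libraries for monocyte genes. Lyz2, the lysozyme of myeloid cells, measured 503, 566 and 434 CPM in AML 1 to 3, against 459, 35.0 and 33.1 CPM in healthy 1 to 3. As separate animals are not stated, p-values reflect only the variation among the 6 libraries, part of which may be technical.

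The plasmacytoid markers Siglech and Ccr9 were found in all 3 AML libraries and were at or near 0 reads in healthy libraries. Tcf4 and Bst2 were well expressed in both groups and on average somewhat higher in AML libraries. Among conventional markers Batf3 was present in AML libraries and near 0 in healthy libraries. Itgax, Xcr1 and Zbtb46 were at similar levels in both groups, Flt3 was uneven within each group, and Clec9a was near the detection limit throughout. These are bulk libraries, in which fewer cells of a type and less RNA per cell cannot be told apart.

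Siglech, a sialic acid-binding lectin that signals through the adaptor DAP12 and marks mouse plasmacytoid dendritic cells (chromosome 7, 55768178 to 55778925, mm10), had 152, 42 and 124 reads in AML 1 to 3, against 0, 0 and 0 reads in healthy 1 to 3. AML 2 held the fewest of the AML libraries, and the groups did not overlap. In healthy libraries 0 reads allow at most 3 reads each, a floor of 0.0603 to 0.0623 CPM that covers counting error only. Against that floor per library the AML mean of 2.22 ± 1.27 CPM (SD, n = 3) was at least 36.3-fold higher. The adaptor gene Tyrobp, which encodes DAP12 and is also used by NK cell receptors, averaged 1619 ± 182 CPM in AML and 1674 ± 52.7 CPM in healthy libraries.

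Ccr9, the receptor for the chemokine CCL25 (chromosome 9, 123678096 to 123783457), had 74, 54 and 70 reads in AML libraries, against 10, 1 and 1 reads in healthy libraries. The groups did not overlap, with healthy 1 the highest healthy library. The pooled reads, 198 in AML and 12 in healthy libraries, gave a 16.6-fold ratio after scaling (95% exact interval 9.28 to 32.6, counting error only). The fitted log2 fold change, AML minus healthy, was 4.02 ± 0.89 (SE), and 5.89 without healthy 1, which held 10 of the 12 healthy reads. Its span in the count table overlaps Lztfl1 and Slc6a20a on the opposite strand, and as the libraries carry no strand information, reads where exons overlap cannot be assigned. On the same strand the span holds the noncoding RNA gene Gm17200 and the pseudogene Gm17020, neither of them among the counted genes. It starts at the same base as Gm17200. The part of these genes in the Ccr9 reads was not tested. The gene of its ligand, Ccl25, averaged 3.15 ± 0.202 CPM in AML and 3.27 ± 0.218 CPM in healthy libraries.

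Tcf4, the E protein E2-2 on which plasmacytoid dendritic cells depend (chromosome 18, 69344492 to 69687967), had 1154, 1024 and 1091 reads in AML libraries, against 699, 1015 and 767 reads in healthy libraries. Healthy 2, at 20.4 CPM, lay above AML 2, at 19.6 CPM, so the groups overlapped on the CPM scale. The log2 fold change was 0.41 ± 0.17 (SE).

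Bst2, or tetherin, a membrane protein that holds budding virus at the cell surface and is known in mouse as the antigen PDCA-1 (chromosome 8, 71534262 to 71537437), measured 84.1, 98.4 and 79.6 CPM in AML libraries, against 71.5, 62.2 and 66.3 CPM in healthy libraries. The groups did not overlap, and AML 2, the AML library with the fewest Siglech reads, had the highest Bst2 level. The log2 fold change was 0.39 ± 0.10 (SE). Per gene length Bst2 stood at 399 times the level of Siglech in AML 2, and at 84.5 and 99.6 times in AML 1 and AML 3. Of the 25 interferon response genes tested, all had a positive log2 fold change, as did 52.0% of all genes, and their summed level ran from 1787 to 1986 CPM in AML and from 1346 to 1524 CPM in healthy libraries. The 25 genes were chosen with earlier results of these data known, so nothing is read from that count. The part of the interferon response in the Bst2 difference was not tested.

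**Figure D1:**
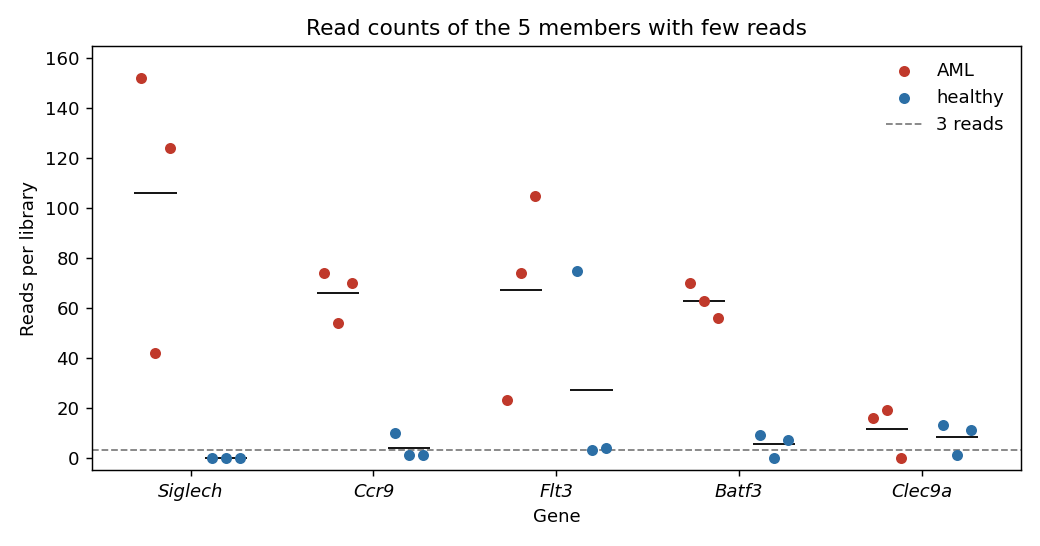
Reads per library (vertical axis) for the 5 members with few reads, with AML libraries left of healthy libraries; points are libraries 1 to 3 from left to right, black lines are group means and the dashed line is 3 reads. Siglech is at 0 reads in every healthy library, Ccr9 and Batf3 separate the groups, and Flt3 and Clec9a overlap between them.

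Batf3, the bZIP factor needed for conventional type 1 dendritic cells (chromosome 1, 191097880 to 191108943), had 70, 63 and 56 reads in AML libraries, against 9, 0 and 7 reads in healthy libraries. The AML libraries were close to each other and all lay above the healthy libraries. The pooled reads, 189 in AML and 16 in healthy libraries, gave an 11.9-fold ratio (95% exact interval 7.12 to 21.2, counting error only), and the log2 fold change was 3.54 ± 0.93 (SE). The related gene Batf stood at similar levels in both groups, with 3586, 3124 and 2820 reads in AML libraries, against 2990, 3456 and 3157 reads in healthy libraries.

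Flt3, the receptor tyrosine kinase for Flt3 ligand (chromosome 5, 147330742 to 147400489), had 23, 74 and 105 reads in AML libraries, against 75, 3 and 4 reads in healthy libraries. Healthy 1 lay above AML 1 and close to AML 2, and it is also the healthy library with the high Lyz2 level; the part of monocyte RNA in Flt3 was not tested. The log2 fold change was 1.30 ± 1.16 (SE), 4.21 without healthy 1, 0.78 without AML 3, 0.76 without healthy 2 and 0.78 without healthy 3. Blocking on replicate number gave 2.69, and limma-voom gave 2.44. Flt3l, the ligand gene, averaged 101.6 ± 12.6 CPM in AML and 108.9 ± 9.03 CPM in healthy libraries.

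Xcr1, the receptor for XCL1 that conventional type 1 dendritic cells carry (chromosome 9, 123852315 to 123862029), had 582, 770 and 782 reads in AML libraries, against 624, 658 and 647 reads in healthy libraries. The groups overlapped, and the healthy libraries differed little among themselves, at 13.1 ± 0.413 CPM, beside 14.5 ± 2.01 CPM in AML libraries (SD, n = 3 each). The log2 fold change was 0.15 ± 0.15 (SE). Clec9a, a receptor for dead cells carried by the same dendritic cells (chromosome 6, 129408862 to 129424764), had 16, 19 and 0 reads in AML libraries, against 13, 1 and 11 reads in healthy libraries. Per gene length Clec9a stood at 0 to 0.0372 of the Xcr1 level in AML libraries and at 0.00206 to 0.0282 of it in healthy libraries. The pooled ratio of Clec9a was 1.41 (95% exact interval 0.818 to 2.45, counting error only). The libraries of each group differed among themselves more than the group means did, and the log2 fold change was 0.46 ± 1.27 (SE). The annotated span of Clec9a overlaps Clec1b on the same strand. Xcl1, the ligand gene of Xcr1 and a known product of ILC1 and NK cells, averaged 1390 ± 74.6 CPM in AML and 1700 ± 336 CPM in healthy libraries.

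Zbtb46, a zinc finger factor of the conventional dendritic cell lineage (chromosome 2, 181390886 to 181459426), had 384, 282 and 230 reads in AML libraries, against 236, 291 and 198 reads in healthy libraries. The groups overlapped, with AML 1 highest, and the log2 fold change was 0.32 ± 0.28 (SE). Itgax, the integrin chain CD11c (chromosome 7, 128129568 to 128150657), was the most abundant member, at 703, 765 and 672 CPM in AML libraries, against 693, 764 and 769 CPM in healthy libraries. The groups overlapped over most of their range, and the log2 fold change was -0.06 ± 0.08 (SE), or 0.0046 without TMM scaling.

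Compared per gene length, in RPKM (CPM divided by gene length in kilobases), the members took the same first 5 places in both groups. Itgax was highest, at 167 ± 11.1 RPKM in AML and 173 ± 9.88 RPKM in healthy libraries, followed by Bst2, at 115 ± 12.9 RPKM in AML and 87.6 ± 6.16 RPKM in healthy libraries. Xcr1, Tcf4 and Zbtb46 came next, at 3.27 ± 0.451, 2.53 ± 0.291 and 1.18 ± 0.348 RPKM in AML libraries, against 2.94 ± 0.0927, 1.90 ± 0.363 and 0.946 ± 0.169 RPKM in healthy libraries (SD, n = 3 each).

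The lower places differed between the groups. In AML libraries Batf3 at 1.06 ± 0.145 RPKM, Siglech at 0.894 ± 0.511 RPKM, Flt3 at 0.378 ± 0.236 RPKM and Ccr9 at 0.273 ± 0.0580 RPKM followed, with Clec9a last at 0.0716 ± 0.0621 RPKM, and neighbours from Zbtb46 down to Ccr9 overlapped over the libraries. In healthy libraries the order was Flt3 at 0.153 ± 0.230 RPKM, Batf3 at 0.0898 ± 0.0792 RPKM, Clec9a at 0.0519 ± 0.0400 RPKM and Ccr9 at 0.0162 ± 0.0210 RPKM, with overlapping neighbours, and Siglech last with no reads. Siglech and Ccr9 did not keep a fixed proportion: per length, Siglech stood at 4.14, 1.57 and 3.57 times Ccr9 in AML 1 to 3.

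**Figure D2:**
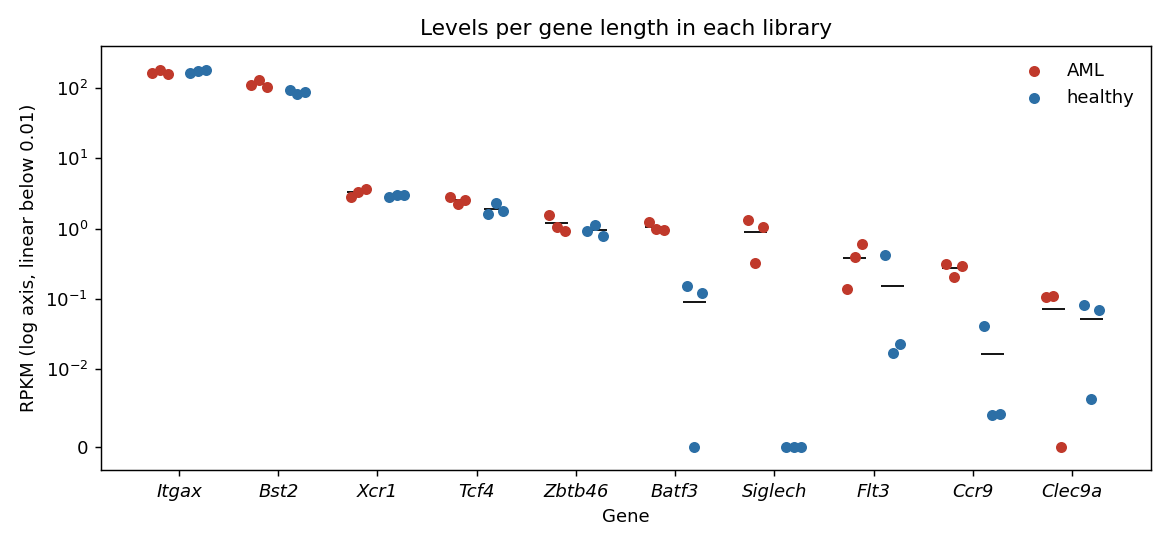
Level of each member in RPKM on a log axis that is linear below 0.01, with AML libraries left of healthy libraries and members ordered by their AML mean; points are libraries and black lines group means. Itgax and Bst2 stand far above the other members in both groups, and Batf3, Siglech and Ccr9 are the members whose healthy points lie far below their AML points.

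The plasmacytoid and conventional markers were then set side by side. The median log2 fold change was 2.22 over the 4 plasmacytoid markers, and 0.42 over the 3 left when a filter of at least 50 reads in 3 libraries dropped Siglech. It was 0.39 over the 6 conventional markers, and 0.01 over all 12469 genes tested, of which 52.0% had a positive value. Setting Siglech to its lower bound could not move the plasmacytoid median, as Siglech stays the highest of the 4. That median is the midpoint of Ccr9, at 4.02, and Tcf4, at 0.41, and no plasmacytoid marker lies near it. Single libraries moved the conventional median to 0.18 without AML 1, 0.63 without AML 3 and 0.61 without healthy 1. The difference of the mean log2 fold changes, plasmacytoid minus conventional, was 2.69 with the fitted value of Siglech, 1.55 with Siglech at its bound of 5.18, and 0.66 without Siglech. All AML libraries lay above all healthy libraries for 3 of the 4 plasmacytoid markers and for 1 of the 6 conventional markers, Batf3, and below it for none, where 8.20% of all genes tested lay above and 7.34% below. Because the markers were chosen on this contrast, nothing is read from these counts. Siglech and Batf3 passed the filter on low counts through the AML libraries alone, with at least 10 reads in 3 AML and in 0 healthy libraries, and Ccr9 and Flt3 reached 10 reads in 3 AML libraries and in 1 healthy library.

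**Figure D3:**
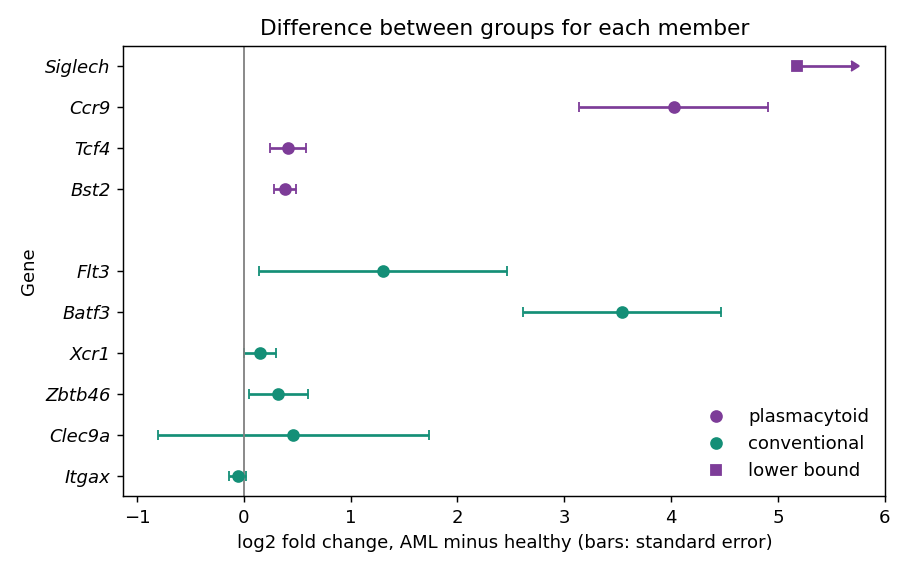
log2 fold change, AML minus healthy, of each member (horizontal axis; bars are standard errors of the edgeR fit), with plasmacytoid markers above conventional markers; the square is the lower bound of 5.18 for Siglech. Siglech, Ccr9 and Batf3 lie far from 0, and the other members lie at or below 1.30.

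Tested across all genes by the quasi-likelihood method of edgeR, 0 of the 10 members reached an adjusted p under 0.05, as did 0% of the 12469 genes tested. At an unadjusted p under 0.05 there were 4 plasmacytoid markers and 1 conventional marker, all higher in AML libraries, where 8.84% of all genes passed, 5.08% in that direction. The members were chosen with this contrast known, so nothing is read from these counts. The calls of members by other methods and without single libraries are likewise a description only. DESeq2 and the edgeR likelihood ratio test each called Siglech, Ccr9 and Batf3, with 1.15% and 0.802% of all genes called, and limma-voom called 0. The calls also rested on single libraries: without healthy 1 only Ccr9 passed among the members, with 0.697% of genes called, without AML 1 only Siglech, with 1.15% of 12764 genes called, and without both libraries Siglech, Ccr9 and Flt3, with 3.54% of genes called. The authors' deposited table lists Bst2, Tcf4, Xcr1 and Itgax among its 9769 genes, with log2 fold changes of 0.40, 0.42, 0.16 and -0.05 and adjusted p-values of 0.137, 0.686, 0.988 and 0.990, and marks none of them among its 61 changed genes.

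Other genes of plasmacytoid dendritic cells were taken from a list of 20, of which 15 were tested. Of these, 0 passed an adjusted p of 0.05 by the edgeR quasi-likelihood test, 4 had an unadjusted p under 0.05, all higher in AML libraries (5.08% of all genes were), and 13 had a positive log2 fold change (52.0% of all genes did), with a median of 0.49. This list, and the conventional, mature and ligand lists below, were chosen with earlier results of these data known. Nothing is read from their counts. The most abundant was Irf8, a factor that NK cells also express, at 312 ± 48.8 CPM in AML and 337 ± 20.2 CPM in healthy libraries. Irf7, the regulator of type I interferon genes, averaged 237 ± 18.3 CPM in AML and 169 ± 20.7 CPM in healthy libraries, a log2 fold change of 0.49 ± 0.11 (SE), and is itself induced by interferon. Unc93b1, which carries nucleic acid-sensing Toll-like receptors to the endosome, averaged 143 ± 1.08 CPM in AML and 119.8 ± 18.6 CPM in healthy libraries. Ly6c2 and Pacsin1 had log2 fold changes of 0.73 ± 0.23 and 0.22 ± 0.18, and Ly6c2 is also among the monocyte genes summed below. The 4 genes with an unadjusted p under 0.05 by the edgeR quasi-likelihood test were Irf7, Ly6c2, Ly6d and Zeb2. Among healthy libraries Zeb2, like Lyz2, was highest in healthy 1. The part of monocyte RNA and of the interferon response in these 4 genes was not tested.

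Genes of the list with few reads were looked at after their values were seen. Ly6d, a surface protein of plasmacytoid and B lineage cells, had 31, 29 and 13 reads in AML libraries, against 0, 4 and 4 reads in healthy libraries. Klk1, a kallikrein, had 4, 6 and 8 reads in AML libraries, against 0 in each healthy library, and Cd300c had 6, 5 and 11 reads, against 0 in each. Spib, an Ets factor of plasmacytoid dendritic cells and B cells, had 5, 17 and 15 reads in AML libraries, against 5, 0 and 2 reads in healthy libraries. Bcl11a, a factor shared with B cells, had 63, 68 and 48 reads in AML libraries, against 43, 0 and 0 reads in healthy libraries, so its healthy reads all lay in healthy 1. Upb1, an enzyme of pyrimidine breakdown, overlapped between the groups, with 31, 26 and 17 reads in AML libraries, against 53, 33 and 17 reads in healthy libraries, and a log2 fold change of -0.46 ± 0.58 (SE). Tlr9 did not separate the groups, with 0, 2 and 31 reads in AML libraries, against 2, 0 and 9 reads in healthy libraries.

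The genes of type I interferon, the product for which plasmacytoid dendritic cells are known, were almost without reads. Of 15 listed genes 10 had 0 reads in all 6 libraries and 0 were tested. Ifnb1 had 3, 0 and 0 reads in AML libraries, against 0, 0 and 0 reads in healthy libraries, and Ifnz had 1, 7 and 9 reads in AML libraries, against 1, 0 and 3 reads in healthy libraries.

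Genes of conventional type 1 dendritic cells other than the members were mixed. Of 11 tested from a list of 12, 0 passed the adjusted threshold of the edgeR quasi-likelihood test, 3 had an unadjusted p under 0.05, all higher in AML libraries (5.08% of all genes were), 7 had a positive log2 fold change (52.0% of all genes did) and the median was 0.40. Clnk, an adaptor that NK cells also express, averaged 130.4 ± 8.56 CPM in AML and 137 ± 2.59 CPM in healthy libraries, and Naaa, a lysosomal amidase, 23.8 ± 0.878 CPM in AML and 18.03 ± 2.28 CPM in healthy libraries. Gcsam had a log2 fold change of -0.41 ± 0.47, and Wdfy4, which is needed for cross-presentation, of 0.71 ± 0.43. Cadm1, an adhesion molecule of these cells named after its values were seen, had 117, 205 and 233 reads in AML libraries, against 88, 63 and 101 reads in healthy libraries.

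Conventional type 2 dendritic cell genes had a positive log2 fold change for all 8 tested of 11 listed (52.0% of all genes), with a median of 1.17 and 2 higher at an unadjusted p under 0.05 (5.08% of all genes), and 0 past an adjusted p of 0.05 by the edgeR quasi-likelihood test. Relb and Notch2 were the most abundant, with log2 fold changes of 0.10 ± 0.12 and 0.23 ± 0.13. Sirpa, which monocytes and macrophages also express, had 2133, 1594 and 1526 reads in AML libraries, against 1482, 204 and 145 reads in healthy libraries, and Clec12a, a myeloid lectin, 592, 359 and 382 reads in AML libraries, against 364, 33 and 44 reads in healthy libraries. Both were highest in healthy 1 among healthy libraries. Clec4a2 had a log2 fold change of 0.97 ± 0.41.

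Genes of mature dendritic cells, 7 tested of 10 listed, had a median of 0.73, with 6 positive (52.0% of all genes), 1 higher at an unadjusted p under 0.05 (5.08% of all genes) and 0 past an adjusted p of 0.05 by the edgeR quasi-likelihood test. Cd86, a costimulatory ligand, averaged 10.9 ± 2.30 CPM in AML and 7.04 ± 1.00 CPM in healthy libraries, and Cd83 25.6 ± 11.7 CPM in AML and 15.4 ± 4.10 CPM in healthy libraries. Socs2, which lymphocytes also express, had a log2 fold change of 0.00 ± 0.12, Cd40 of 1.49 ± 0.69 and Fscn1, the actin bundler of mature dendritic cells, of -0.07 ± 0.97. The 8 genes of ligands and partners had a median of -0.05, with 0 at an unadjusted p under 0.05 and 0 past the adjusted threshold by the edgeR quasi-likelihood test. Among them Id2, which ILC1 and dendritic cells share, averaged 1924 ± 269 CPM in AML and 1947 ± 363 CPM in healthy libraries.

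**Figure D4:**
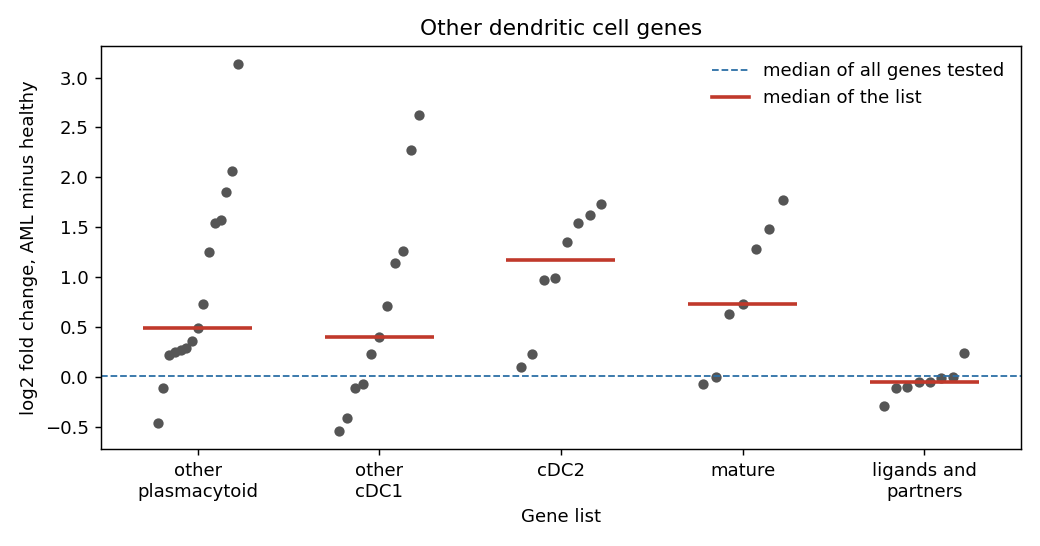
log2 fold change, AML minus healthy, of each tested gene (points) in 5 lists. The list median is in red, and the median of all 12469 genes is a dashed line. The lists hold other dendritic cell genes, apart from the last, which holds ligands and partners. Irf8 is on the plasmacytoid, the conventional type 1 and the ligand and partner lists. The medians run from -0.05 for ligands and partners to 1.17 for conventional type 2 genes, and points within a list spread widely.

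Genes with the read pattern of Siglech were listed as a description, since Siglech was chosen with that pattern known. Of 24091 genes, 5, or 0.0208%, had 0 reads in every healthy library and at least 10 in every AML library, and 0, or 0%, had the opposite pattern. Siglech held the highest reads of these 5. Siglecg, another sialic acid-binding lectin, known from B cells, had 24, 11 and 22 reads in AML 1 to 3, and Tlr11, a Toll-like receptor on the type 1 dendritic cell list, had 26, 10 and 28 reads. In Siglecg and Tlr11, as in Siglech, AML 2 held the fewest reads. The metabolic enzyme gene Kynu had 15, 12 and 10 reads and the meiosis gene Syce1 10, 23 and 16 reads, which do not follow that order. Left-out libraries gave 37 such genes without healthy 1, 9 without healthy 3, 8 without AML 1, 14 without AML 2 and 9 without AML 3, and at a minimum of 20 reads Siglech alone remained.

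Markers of other cells were summed in each library beside the dendritic cell markers. The summed level of 15 macrophage genes ran from 152 to 227 CPM in AML and from 34.0 to 123 CPM in healthy libraries, that of 13 monocyte genes from 965 to 1133 CPM in AML and from 367 to 917 CPM in healthy libraries, and that of 10 MHC class II genes from 389 to 685 CPM in AML and from 112 to 217 CPM in healthy libraries. In all 3 lists every AML sum lay above every healthy sum, and AML 2, lowest of the AML libraries for Siglech and Ccr9, was also lowest for the macrophage and MHC class II sums and highest for the monocyte sum. The sum of 10 B cell genes ran from 5.49 to 7.02 CPM in AML and from 6.19 to 8.16 CPM in healthy libraries, and Pax5, the defining factor of B cells, had 0 reads in all 6 libraries. The sum of 10 haematopoietic progenitor genes ran from 18.1 to 33.3 CPM in AML and from 7.26 to 26.5 CPM in healthy libraries. Neutrophil genes summed to 211 to 372 CPM in AML and 142 to 254 CPM in healthy libraries, with Ly6g at 0 reads in all 6. Hepatocyte and endothelial genes summed to 202 to 321 CPM in AML and 128 to 195 CPM in healthy libraries, so these groups were apart too. The T cell sums given earlier also kept the groups apart, with the higher values in healthy libraries. AML 2 was the lowest AML library for the neutrophil, progenitor, and hepatocyte and endothelial sums as well. It was the highest AML library for the B cell and T cell sums. The part of these other cells in the values of the dendritic cell markers was not tested.

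**Figure D5:**
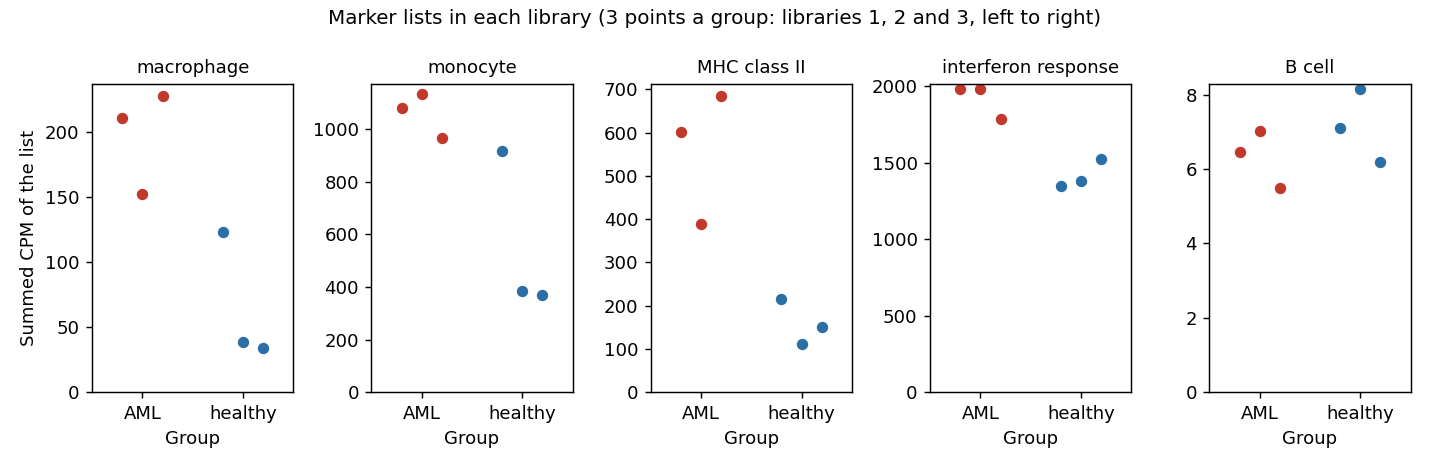
Summed CPM of 5 marker lists in each library (vertical axes start at 0), with AML libraries left of healthy libraries and libraries 1 to 3 from left to right. The macrophage, monocyte, MHC class II and interferon response sums are higher in every AML library than in every healthy library, with healthy 1 close to the AML libraries for monocyte genes, and the B cell sums overlap.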

How the data were processed

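Messenger RNA of 3 AML and 3 healthy ILC1 libraries was measured. Per the labels' protocols 2 ng of total RNA was amplified with a SMART-Seq poly(A) kit and sequenced as 51-cycle single reads without strand information. Per the submitters' processing notes the builds mm10 and hg19 and the tools edgeR 3.28.1, HTSeq 0.6.0, STAR 2.6.0 and bcl2fastq 2.18.0.12 were used, with no role given. The authors deposited raw read counts per gene, with gene positions and lengths. A second deposited table holds, per the file headers, the authors' log2 fold changes and log2 CPM, a likelihood ratio score, p-values and adjusted p-values; the authors' values per library in it are RPKM as judged from the counts, and were not used.

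Groups came from the titles. Counts were tested with edgeR 4.0.16 in R 4.3.3 (quasi-likelihood test, TMM, filterByExpr at a minimum count of 10, group only, two-sided), with Benjamini-Hochberg adjustment over all 12469 genes tested and a threshold of 0.05. RPKM was computed from TMM-scaled CPM and the deposited length. A count of 3 was the limit that 0 reads allow, 0.0574 to 0.0642 CPM. No pair of libraries was identical. With 3 libraries a group, an exact permutation test cannot go below p = 0.1. The fit was tested on simulated data at an adjusted p under 0.05. It called 66.0% of 97 genes changed 2-fold, 83.3% of 96 genes changed 4-fold, and 3 unchanged genes. The alternatives were DESeq2 1.42.0, limma 3.58.1 (voom), the likelihood ratio test, other size factors and filters, the replicate number as a block, and left-out libraries.

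The members and lists were chosen with earlier results of these data known. The rule for named genes took the 10 members, genes with the read pattern of Siglech, and identity genes of ILC1, NK and T cells. It also took up to 5 tested genes of highest mean CPM in each list. These were printed for the dendritic cell lists and for the ligands and partners only. Genes named outside that rule were picked with their values in view. GENCODE M21 (GRCm38) gave gene overlaps. The lower coordinate of each member in the count table, whatever its strand, lay at most 3124 bases from the GENCODE one, so positions are given as mm10.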

Additional observations from a re-analysis of the deposited data

How the results depend on the processing

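With all 6 libraries the quasi-likelihood test called 0 genes. It called 2 without TMM scaling and 2 without a filter on low counts, while DESeq2 called 143 and the likelihood ratio test 100. Left-out libraries gave 0 to 147 genes and 0 to 1 members, and leaving out AML 1 and healthy 1 together gave 444 genes and 3 members. DESeq2 and the likelihood ratio test called 3 members each. The plasmacytoid median was 0.42 with at least 50 reads in 3 libraries, which leaves Siglech out, and ran from 1.97 to 3.16 over left-out libraries, with 3.12 without both AML 1 and healthy 1. The conventional median ran from 0.18 to 0.63 over left-out libraries. The difference of means was 0.56 under the 50-read filter and 2.05 by limma-voom, and 2.50 to 2.90 over left-out libraries; the cause of the limma-voom value was not tested. The genes with the read pattern of Siglech numbered 1 at a minimum of 20 reads and 7 to 37 over left-out libraries, where fewer libraries have to meet the pattern.

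Single members reversed 3 times: Itgax to 0.0046 without TMM scaling, and Clec9a to -0.13 by limma-voom and to -0.070 without healthy 2, where left-out libraries took it from -0.070 to 1.04. The labels do not say whether equal replicate numbers pair the libraries. Deviations from the group means correlated at 0.13, -0.05 and 0.16 over the 3 equal numbers. Unmatched numbers were not compared, so these values cannot decide on pairing. With the replicate block the test called 0 genes and 0 members, the medians were 2.45 and 0.27, and the difference of means was 2.56. Intervals from pooled reads cover counting error only.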
